A study of Mus musculus with 9 samples.

Results

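The collagen chain genes are the 44 of 24421 genes in the deposited tables whose symbol is Col, a type number, the letter a and a chain number. By the kind of collagen they encode, 11 were grouped as fibrillar, 6 as basement membrane (type IV), 6 as microfibril (type VI), 9 as fibril-associated (FACIT), 2 as multiplexin, 3 as short-chain network, 4 as transmembrane, 1 as anchoring fibril (type VII) and 2 as other. Their RNA was measured by sequencing total RNA from mouse kidney (2 libraries) and muscle (7 libraries), in a series whose title concerns cancer cachexia and the secreted Wnt inhibitor Dkk1. The kidney libraries came from 1 wild type mouse group and 1 tumour group, both given PBS, the vehicle. In muscle there were 2 wild type libraries given PBS and 1 library of each other group: tumour given PBS, tumour given MDC, wild type given DKK1, beta-arrestin knockout given PBS and beta-arrestin knockout given DKK1. The labels give MDC by its letters alone, and give neither the kind of tumour, the beta-arrestin gene deleted, the strain, the age, the dose nor the time. Nothing in them says that the 2 wild type libraries came from separate animals, so p-values measure the spread between these samples, which may be technical.

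Collagens are built from chains that wind into triple helices. Fibrillar chains (types I, III and V) form the tensile fibres of the tissue around muscle fibres and kidney tubules, and are made mainly by fibroblasts. Type IV chains form the sheet-like network of basement membranes, where Col4a1 and Col4a2 chains occur in nearly every tissue and Col4a3, Col4a4 and Col4a5 chains build the mature filter of the kidney glomerulus. Type VI chains form beaded microfibrils beside the muscle basement membrane, and loss of their function causes muscle disease. Multiplexins (types XV and XVIII) link basement membranes to the matrix around them.

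Several type IV genes lie head to head. In the GENCODE M21 annotation of GRCm38, Col4a3 (chromosome 1, plus strand) and Col4a4 (minus strand) start 72 bases apart, Col4a1 and Col4a2 (chromosome 8) start 21 bases apart, and Col4a5 and Col4a6 (chromosome X) start 1309 bases apart. The exons of Col4a1 and Col4a2 overlap by 22 bases on opposite strands, and whether counting used strand is not given in the sources used here. Upstream sequences are shown for 4 genes on which the values below turn: the gap shared by the Col4a3 and Col4a4 starts, which had the largest kidney excess, and the bases before the starts of Col3a1, Col15a1 and Col7a1, which had the largest wild type muscle counts of the fibrillar genes, the smallest p with DKK1 and an opposite pattern. They are from RefSeq (GRCm38.p6), 5′ to 3′ on the gene's own strand, with annotated exon bases left out. Capitals mark the core of the TATA box (TATAAA), the CCAAT box and the GC box (with its letters GGGCGG), which were searched on both strands, so that a capital run may be a box read on the other strand.
Col4a4, chr1:82586850-82586920, minus strand: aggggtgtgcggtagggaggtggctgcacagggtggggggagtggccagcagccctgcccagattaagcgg
Col3a1, chr1:45311288-45311537, plus strand: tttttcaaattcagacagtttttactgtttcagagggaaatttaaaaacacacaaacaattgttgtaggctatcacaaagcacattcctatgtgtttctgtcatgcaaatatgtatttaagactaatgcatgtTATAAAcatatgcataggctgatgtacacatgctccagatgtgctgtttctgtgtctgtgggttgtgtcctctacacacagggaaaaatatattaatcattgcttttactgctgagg
Col15a1, chr4:47207762-47208011, plus strand: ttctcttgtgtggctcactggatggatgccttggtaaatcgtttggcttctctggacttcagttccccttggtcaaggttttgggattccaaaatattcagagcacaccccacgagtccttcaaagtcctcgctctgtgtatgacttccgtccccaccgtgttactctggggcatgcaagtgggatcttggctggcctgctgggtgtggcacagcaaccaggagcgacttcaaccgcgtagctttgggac
Col7a1, chr9:108953336-108953585, plus strand: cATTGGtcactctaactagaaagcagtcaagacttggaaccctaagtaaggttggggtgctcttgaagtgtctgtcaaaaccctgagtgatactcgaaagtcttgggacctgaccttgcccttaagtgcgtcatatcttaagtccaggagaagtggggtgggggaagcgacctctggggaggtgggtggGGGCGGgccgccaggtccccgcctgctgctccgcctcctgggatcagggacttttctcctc

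The Col3a1 stretch was 35.2% G and C and held TATAAA, while the Col4a4 stretch was 69.0% G and C and held none of the 3 marked motifs. The Col15a1 stretch also held none, and the Col7a1 stretch held CCAAT and GGGCGG. Of the 44 genes, 35 were in the RefSeq table, and 5 motifs were searched in the 250 bases before their starts, exon bases included, and before the starts in all 32851 windows of the table. GGGCGG was in 60.0% of collagen genes and 32.7% of all windows, GGGAGG in 68.6% and 38.0%, and CACCC in 65.7% and 52.0%. TATAAA (14.3% and 12.4%) and CCAAT (34.3% and 33.8%) were about as frequent in collagen genes as in all windows. A match is a run of letters and not evidence of a bound factor.

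Total counts ranged from 21358854 to 32607835 in muscle and from 42480786 to 44421797 in kidney. The muscle marker Acta1 was at 23598 to 45418 CPM (counts scaled to the size of the library) in muscle and at 60.5 and 42.7 CPM in kidney. Kidney tubule markers summed to 32.8 CPM in wild type PBS library 1 and to 2.34 to 8.65 CPM in the other 6 muscle libraries, against 11877 and 15085 CPM in kidney. The labels' knockout was checked on both beta-arrestin genes: Arrb1 was at 20.5 and 28.2 CPM in the PBS and DKK1 libraries labelled knockout, against 18.8 ± 2.12 CPM in wild type PBS muscle (SD, n = 2), and Arrb2 was at 9.61 and 7.98 CPM against 7.72 ± 0.186 CPM. Neither gene was lower under the knockout label, so the directions below are those of the libraries labelled knockout. The deposited tables' names carry a letter of unstated meaning, which sets wild type PBS library 1 with both tumour muscle libraries and wild type PBS library 2 with the DKK1 and knockout-labelled libraries. Each of those groups thus has 1 wild type PBS library with its own letter (library 1 for the tumour groups, library 2 for the DKK1 and knockout-labelled groups) and 1 with another letter. Changes are given against each, and against the library with another letter the group and the letter cannot be told apart. Both kidney libraries share a letter that no muscle library has, so between kidney and muscle the tissue and the letter cannot be told apart either.

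The wild type PBS libraries differed from each other in their collagens. Collagen chains took 0.0528% of counts in library 1 and 0.168% in library 2. Fibrillar genes summed to 330 CPM (trimmed-mean scaled, TMM) in library 1 and 902 CPM in library 2, type IV genes to 162 and 308 CPM, and type VI genes to 90.0 and 238 CPM. A gene was counted as higher or lower by size when it differed at least 2-fold from each reference library, with at least 100 counts in the higher library (for a lower gene, in each reference library). By that rule 14 of 21 collagen genes that could be higher were higher in library 2 (15.0% of all genes that could be), and 4 of 19 were lower (13.5% of all genes). Without a size limit 33 of 40 were higher (51.0% of all genes) and 7 lower (48.5%). The 4 lower genes were Col7a1, Col11a2, Col19a1 and Col24a1. The skeletal muscle markers went both ways. Of 10, 5 were higher by size in library 2, including the slow-fibre genes Myh7 (58.8-fold) and Tnnt1 (29.2-fold), and 4 were lower, including the abundant Ckm (ratio 0.319) and Myh4 (0.367), so that their sum was 213333 CPM in library 1 and 107574 CPM in library 2. Macrophage markers summed to 97.2 and 645 CPM, and Schwann cell markers to 35.7 and 205 CPM. Their part in the collagen difference was not tested, and in bulk tissue fewer cells of a type and less RNA per cell cannot be told apart.

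**Figure D1:**
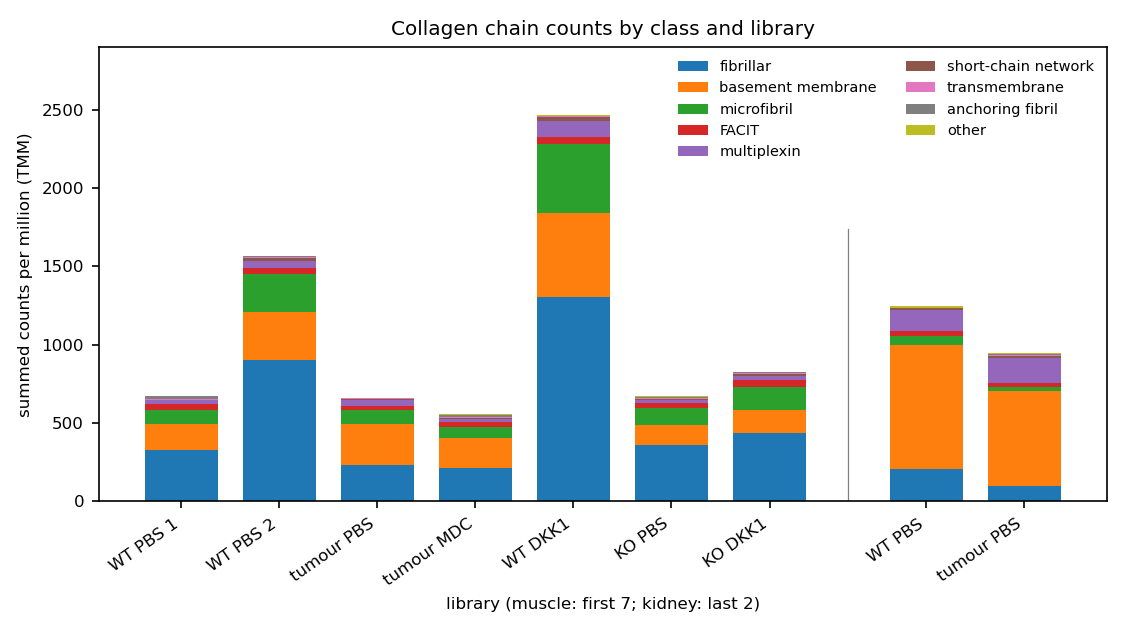
Summed TMM-scaled CPM of the collagen genes of each class (stacked bars from 0) in each library, 1 bar per library; muscle and kidney were scaled separately. The wild type DKK1 bar reaches 2466 CPM and the 2 wild type PBS bars 672 and 1566 CPM, and type IV is the tallest block in both kidney bars.

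The wild type DKK1 library had the most collagen RNA of the 7 muscle libraries, at 2466 summed CPM, while the DKK1 library labelled knockout was at 826 CPM. Wild type DKK1 was the highest of the 7 for 28 of 40 collagen genes tested, against 20.6% of all genes tested. Further, 30 of the 40 were above both wild type PBS libraries, against 32.4% of all genes, and 4 below both, against 29.6%. Of the other libraries, wild type PBS library 1 was the highest for 5 genes (19.6% of all genes), tumour MDC for 3 (15.9%), wild type PBS library 2 for 2 (12.9%), the PBS and DKK1 libraries labelled knockout for 1 each (12.5% and 9.31%) and tumour PBS for 0 (9.2%). The lowest library was wild type PBS library 1 for 11 genes (21.8%), tumour MDC for 11 (15.6%), tumour PBS for 8 (9.55%), knockout-labelled PBS for 6 (12.2%), wild type DKK1 for 2 (17.7%), and wild type PBS library 2 (13.0%) and knockout-labelled DKK1 (10.2%) for 1 each. In wild type DKK1 the median log2 change of the 40 collagen genes was 1.25. It was 0.58 against library 2, which has the same letter, and 1.95 against library 1. The median of all genes tested was 0.007, at 0.005 against library 2 and 0.036 against library 1. By size 2 of 25 collagen genes were higher (2.41% of all genes), Col15a1 and Col6a2, and 1 of 16, Col7a1, was lower (0.335% of all genes). Against library 1 alone 19 collagen genes were higher by size, and against library 2 alone 3, with the share of all genes not given. With total counts alone as the scaling, 8 were higher and 0 lower, which ends the call for Col7a1. With edgeR's quasi-likelihood test and Benjamini-Hochberg adjustment no gene of 15482 passed. Without adjustment 206 genes (1.33%) and 4 collagen genes had p under 0.05, and DESeq2 called 4 genes and limma-voom 0, none of them a collagen gene.

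Col15a1, the type XV chain at muscle and capillary basement membranes, was at 17.2 and 26.0 CPM in wild type PBS libraries 1 and 2, 32.5 CPM in tumour PBS, 17.3 CPM in tumour MDC, 74.6 CPM in wild type DKK1, and 13.8 and 16.05 CPM in the PBS and DKK1 libraries labelled knockout. The wild type DKK1 library was the highest and stood clear of the other 6. Its log2 change against wild type PBS was 1.82 (2.12 against library 1 and 1.52 against library 2), with an unadjusted edgeR p of 0.00714 and an adjusted p of 1.0.

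Col6a2, a type VI chain, was at 29.1 and 73.5 CPM in wild type PBS, 26.0 CPM in tumour PBS, 19.8 CPM in tumour MDC, 152 CPM in wild type DKK1, and 31.2 and 47.8 CPM in the PBS and DKK1 libraries labelled knockout. Its partner chains Col6a1 and Col6a3 had the same library on top, at 162 CPM against 37.0 and 84.0 CPM, and at 119 CPM against 22.1 and 75.5 CPM. All 5 type VI genes tested were above both wild type PBS libraries.

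Col1a1 and Col1a2 encode the chains of type I collagen, the main fibre of tendon and muscle sheath. Col1a1 was at 30.9 and 115 CPM in wild type PBS, 29.2 CPM in tumour PBS, 23.5 CPM in tumour MDC, 157 CPM in wild type DKK1, and 43.3 and 51.4 CPM in the PBS and DKK1 libraries labelled knockout. Col1a2 was at 328 CPM in wild type DKK1, at 96.8 and 211 CPM in the wild type PBS libraries, and at 69.6 to 138 CPM in the other 4. On the log2 scale wild type PBS library 2 lay nearer to the DKK1 library than to library 1 for both genes. Col3a1, the type III chain that runs with type I in distensible tissue, was at 136 and 437 CPM in wild type PBS, 78.6 CPM in tumour PBS, 73.1 CPM in tumour MDC, 628 CPM in wild type DKK1, and 155 and 173 CPM in the PBS and DKK1 libraries labelled knockout. The tumour libraries were the lowest of the 7 for Col3a1.

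Col5a1 and Col5a2, minor chains that set fibril width, were at 75.4 and 62.5 CPM in wild type DKK1, above 18.7 and 53.9 CPM for Col5a1 and 12.7 and 47.4 CPM for Col5a2 in the 2 wild type PBS libraries. Col4a1 and Col4a2, the chains of ordinary basement membrane, were at 309 and 213 CPM there, above 83.5 and 172 CPM for Col4a1 and 72.4 and 128 CPM for Col4a2. Col7a1, whose chain forms the fibrils that anchor epithelium, went the other way, at 19.96 and 5.37 CPM in wild type PBS, 4.29 CPM in tumour PBS, 18.5 CPM in tumour MDC, 2.41 CPM in wild type DKK1, and 11.2 and 5.73 CPM in the PBS and DKK1 libraries labelled knockout. The DKK1 library was the lowest for Col7a1, with a log2 change of -2.08.

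**Figure D2:**
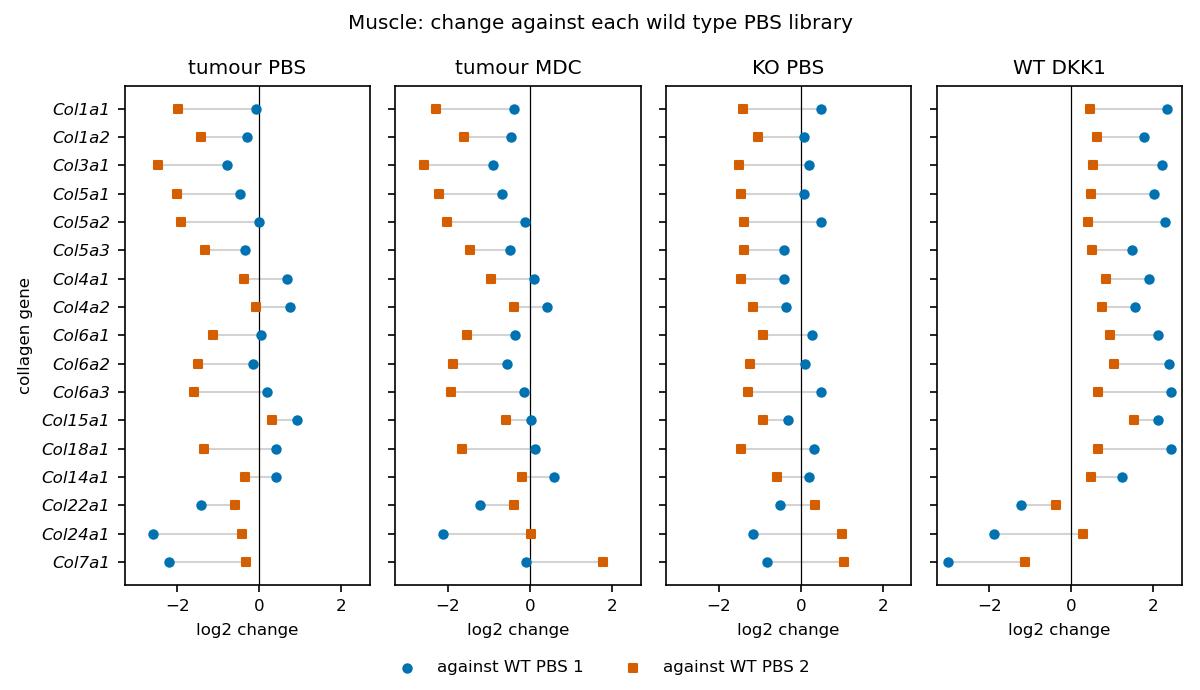
Log2 change of 17 collagen genes in 4 single muscle libraries, against wild type PBS library 1 (circles) and library 2 (squares), with 1 panel per library and a vertical line at no change. For the tumour and knockout-labelled libraries many genes lie on both sides of 0 or far apart, and in the wild type DKK1 panel Col15a1 is at 2.12 and 1.52.

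Genes that process or accompany collagen were read from lists in the same comparison. List counts in every comparison are out of all genes of the list, some of which had too few counts to be called. The shares of all genes are those given with the collagen counts, here 2.41% higher and 0.335% lower. Of 10 small proteoglycans, which bind and space fibrils, 3 were higher by size and 0 lower, among them Lum (85.7 CPM against 24.2 and 37.4 CPM) and Ogn (66.9 CPM against 20.8 and 32.1 CPM). Of 17 breakdown genes (11 could be higher) 2 were higher and 0 lower. The higher ones were the collagen-cleaving protease gene Ctsk (12.7 CPM against 2.67 and 5.50 CPM) and the gelatinase gene Mmp2 (95.9 CPM against 22.3 and 41.2 CPM). None of 19 maturation and secretion genes (17 could be higher), 14 cross-linking and processing genes (11) or 15 basement membrane partners (12) changed by size. Nor did any of 9 receptors (5 could be higher) or 17 TGF-beta and matrix genes (16). The median log2 changes of these lists were 0.65, 0.97, 0.95, 0.68 and 0.65 in that order. No list gene passed edgeR's adjusted test.

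Markers of other cells moved with this library. Of 7 Schwann cell markers 6 were higher by size, and their sum was 498 CPM in wild type DKK1 against 35.7 to 205 CPM in the other 6. Endothelial markers summed to 901 CPM against 262 to 580 CPM, with 3 of 8 higher by size. Fibroblast markers summed to 386 CPM against 142 to 308 CPM, with 2 of 10 higher by size. Skeletal muscle markers summed to 76594 CPM, the lowest of the 7 libraries, with 2 of 10 lower by size (Ttn and Myh4) and 0 higher. The median log2 change of the muscle markers was 0.08, at 0.41 against library 1 and -0.25 against library 2. The low sum thus does not stand for the list as a whole. The part of all these markers' cells in the collagen levels was not tested.

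Between the 2 libraries labelled knockout, the DKK1 library was above the PBS library for 32 of 40 collagen genes (47.9% of all genes) and below it for 8 (52.1%), with a median log2 change of 0.32. By size 1 of 22 was higher (2.29% of all genes) and 0 of 18 lower (0.775% of all genes). The higher gene was Col23a1, a transmembrane chain, with 110 counts against 35, a ratio of 2.31 (95% interval 1.57 to 3.48, for counting error only). By edgeR 0 genes passed the adjusted test and 48 genes (0.31%), 0 of them collagen genes, had p under 0.05 before adjustment. The other tools, DESeq2 and limma-voom, called 0 as well. In the same pair 5 of 10 fibroblast markers were higher by size, including Pi16 and Pcsk6, with sums of 308 and 142 CPM. Of 11 macrophage markers 3 were lower by size and 1 was higher (Cd163, 18.2 CPM against 8.42 CPM). The slow-fibre genes Myh7 (2055 CPM against 8.37 CPM) and Tnnt1 (493 CPM against 5.78 CPM) were higher, and the part of these differences in the collagen values was not tested.

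The DKK1 change in the knockout-labelled pair and in wild type is set side by side here, with the change against library 2 and then library 1. It was 0.22 for Col15a1 against 1.52 and 2.12, 0.28 for Col4a1 against 0.85 and 1.89, and 0.61 for Col6a2 against 1.04 and 2.38. It was 0.25 for Col1a1 against 0.44 and 2.34, and 0.16 for Col3a1 against 0.52 and 2.21. For Col5a1 it was 0.64 against 0.48 and 2.01, so larger than the change against library 2. Of the 40 genes tested, 33 had a smaller change in the knockout-labelled pair than in wild type against library 1, and 7 a larger one. Against library 2, which has the same letter, 23 had a smaller change and 17 a larger one. The shares of all genes are not given, so these counts have no background beside them. The larger ones against library 2 included Col14a1 (0.77 against 0.47), Col12a1 (0.48 against 0.00) and Col8a1 (0.40 against 0.14), which are picked out here with their values known. The difference of the 2 changes was tested as an interaction in edgeR, which called 0 genes after adjustment, with 44 genes and 0 collagen genes at unadjusted p under 0.05, while DESeq2 called 3 genes and limma-voom 0, none a collagen gene. Col15a1 had the smallest p of the collagen genes, 0.108 (edgeR adjusted p 1.0), with a log2 difference of -1.57.

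Compared directly, 18 of 25 collagen genes were lower by size in the DKK1 library labelled knockout than in wild type DKK1 (10.3% of all genes), and 3 of 22 were higher (2.91% of all genes). Without a size limit 32 of 40 tested were lower (51.1% of all genes) and 8 higher (48.4%). The 18 included 6 fibrillar, 2 type IV, 4 type VI and 2 multiplexin genes. Their ratios ran from 0.215 for Col15a1 (95% interval 0.196 to 0.236, counting error only) to 0.490 for Col8a1. The 3 higher were Col7a1 (2.38), Col24a1 (2.13), a fibrillar chain, and Col22a1 (2.05), a chain found at muscle-tendon junctions, and with total counts alone as the scaling 0 were higher. EdgeR called 0 of 15482 genes after adjustment, with 218 genes (1.41%) and 4 collagen genes at unadjusted p under 0.05; DESeq2 called 6 genes and limma-voom 0, none a collagen gene. In the same pair, 5 of 14 cross-linking genes were lower by size, including Pxdn (20.3 CPM against 68.8 CPM), the peroxidase that cross-links type IV collagen, and Lox (5.67 CPM against 18.0 CPM). Of 19 maturation genes 4 were lower, including Sparc (259 CPM against 687 CPM), a collagen-binding matrix protein. All 8 endothelial, all 7 adipocyte, 6 of 7 Schwann cell and 7 of 9 pericyte and smooth muscle markers were lower by size, and 0 higher. Of 10 skeletal muscle markers 4 were higher and 1, Myh1, was lower. The higher ones included the slow-fibre genes Myh7 (2055 CPM against 138 CPM) and Tnnt1 (493 CPM against 49.1 CPM). The part of these cells and fibres in the collagen values was not tested.

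**Figure D3:**
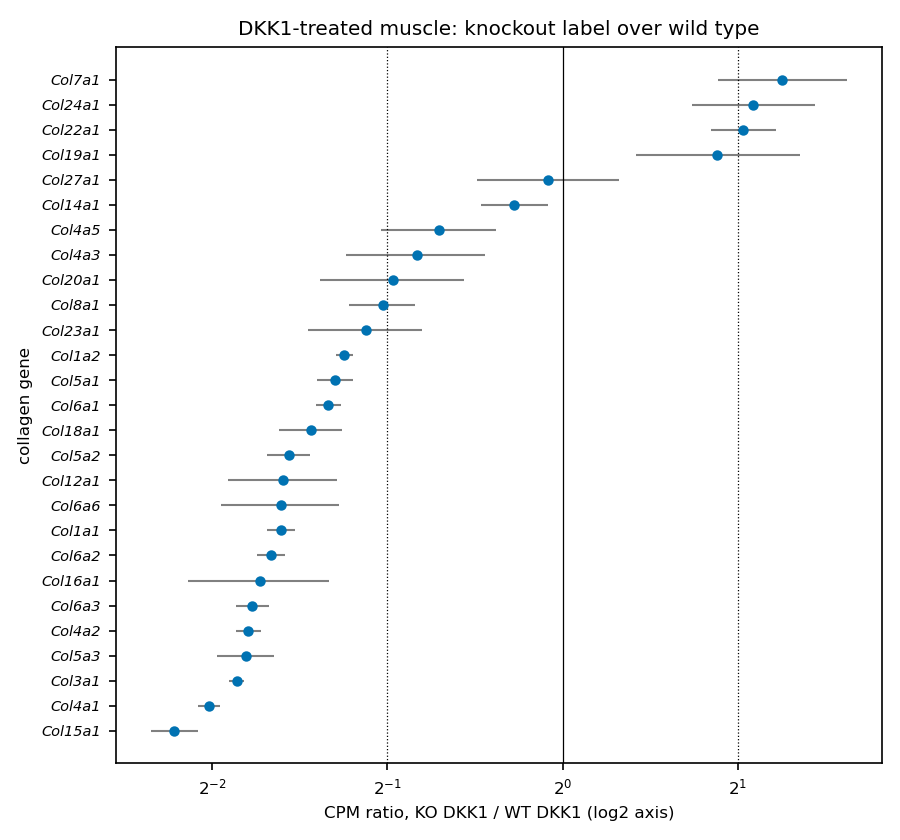
Ratio of TMM-scaled CPM, DKK1 library labelled knockout over wild type DKK1 library (log2 axis), for the collagen genes with at least 100 counts in either library. Bars are 95% intervals for counting error only, dotted lines mark 2-fold, and Col15a1 is lowest at 0.215 and Col7a1 highest at 2.38.

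The PBS library labelled knockout differed from wild type PBS in no collagen gene by size, with 0 of 18 higher (0.825% of all genes) and 0 of 16 lower (0.734% of all genes). Against library 2 alone 15 collagen genes were lower by size, and against library 1 alone 3, with the share of all genes not given. Library 2 itself had 14 of 21 collagen genes higher by size than library 1 (15.0% of all genes). Its median log2 change was -0.42, made of 0.19 against library 1 and -0.91 against library 2, and 3 of 40 genes were above both libraries (24.3% of all genes) and 11 below both (26.0%). Library 2 has the same letter. Of 7 adipocyte markers 4 were lower by size, with sums of 138 CPM against 300 and 1186 CPM. EdgeR called 0 genes after adjustment, with 182 genes (1.18%) and 0 collagen genes at unadjusted p under 0.05; DESeq2 called 19 genes and limma-voom 0, none a collagen gene. Col9a1, a cartilage FACIT chain, had 29 and 22 counts in the PBS and DKK1 libraries labelled knockout and 0 to 5 counts in the other 5 muscle libraries. Col4a6 had 20 to 39 counts in wild type PBS library 2 and the 3 libraries that share its letter, and 0 in wild type PBS library 1 and both tumour libraries, where a count of 0 allows up to 0.141, 0.088 and 0.134 CPM.

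Tumour muscle given PBS showed no collagen gene higher (0 of 19, 1.37% of all genes) or lower (0 of 16, 0.497% of all genes) by size. Taken against library 2 alone 15 were lower, and against library 1 alone 4, with the share of all genes not given. Its median log2 change was -0.78, made of -0.07 against library 1, which has the same letter, and -1.11 against library 2. Above both wild type libraries were 3 of 40 collagen genes (25.2% of all genes), and below both were 20 (24.3%). The fibrillar genes were below both wild type libraries in 8 of 10 cases. Their median log2 change was -0.32 against library 1 and -1.37 against library 2. For Col3a1 the changes against libraries 1 and 2 were -0.79 and -2.48, with a mean of -1.63. Col3a1 had the smallest unadjusted edgeR p, 0.0466 (adjusted p 1.0), with a log2 change of -1.63. EdgeR called 0 genes after adjustment, with 165 genes (1.07%) and 1 collagen gene at unadjusted p under 0.05; DESeq2 called 12 genes and limma-voom 0, none a collagen gene. Per length, the type IV chains made 34.2% of collagen RPKM in the tumour PBS library and 30.3% in tumour MDC, against 14.8% to 21.1% in the other 5, and the fibrillar chains 37.0% and 40.3% against 50.6% to 58.6%. The neutrophil collagenase gene Mmp8 and the gelatinase gene Mmp9 were higher by size, at 8.67 CPM against 0 and 0.524 CPM and at 8.41 CPM against 0.281 and 2.36 CPM.

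With MDC, tumour muscle had a median collagen log2 change of 0.00 against tumour PBS, with 18 of 40 genes above it (49.3% of all genes) and 19 below (49.9%). By size 1 of 19 was higher (1.31% of all genes), Col7a1, and 0 of 19 lower (3.38% of all genes). Col7a1 had 415 counts against 146, a ratio of 4.32 (95% interval 3.57 to 5.25), with an unadjusted edgeR p of 0.0482 (adjusted p 1.0); wild type PBS library 1 was at a like level. Of 7 adipocyte markers 6 were lower by size (sums of 491 CPM with MDC and 950 CPM without) and 3 of 11 macrophage markers were lower, while Myh7 (9.75-fold) and Tnnt1 (6.71-fold) were higher. Their part was not tested. Col15a1 had a ratio of 0.533 (0.473 to 0.599), short of 2-fold. EdgeR called 0 genes, with 38 genes (0.245%) and 1 collagen gene at p under 0.05 before adjustment, and 0 were called by DESeq2 or limma-voom. Against wild type PBS, tumour MDC muscle had 0 of 19 collagen genes higher (0.787% of all genes) and 0 of 16 lower (0.799% of all genes). Against library 2 alone 15 were lower and against library 1 alone 3, with the share of all genes not given. The median log2 change was -0.56, made of 0.0057 against library 1, which has the same letter, and -1.02 against library 2. Above both wild type libraries were 5 of 40 genes (28.6% of all genes), and below both were 16 (27.2%). There edgeR called 0 genes, with 231 genes (1.49%) and 2 collagen genes (Col3a1 and Col5a1) at unadjusted p under 0.05; DESeq2 called 11 genes and limma-voom 0, none a collagen gene. All muscle comparisons with wild type PBS share the same 2 control libraries.

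**Figure D4:**
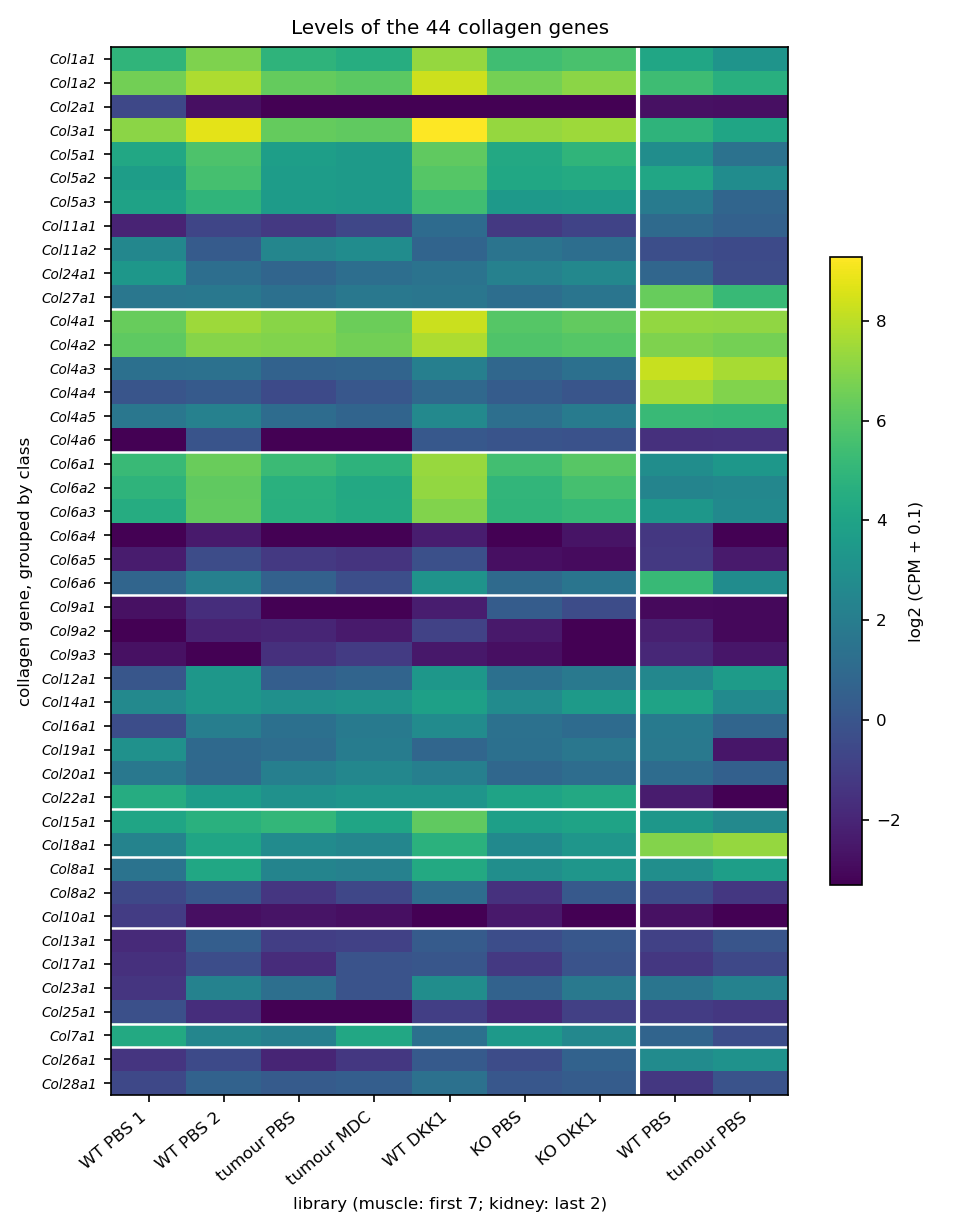
Level of each of the 44 collagen genes, log2 of CPM plus 0.1, in each library (columns; muscle and kidney scaled separately), with genes grouped by class between white lines. Col4a3, Col4a4 and Col27a1 are bright in the 2 kidney columns, and the type I and III genes, Col6a1, Col6a2 and Col6a3 in the muscle columns. The type VI gene Col6a6 is brighter in wild type kidney than in muscle.

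Kidney and muscle used different collagens. Of 39 genes tested, 14 passed edgeR's adjusted test between wild type kidney and wild type PBS muscle (16.5% of all genes passed), 18 had p under 0.05 before adjustment (27.3% of all genes), 16 passed DESeq2 and 6 limma-voom. By size 7 of 25 were higher in kidney (25.4% of all genes) and 11 of 16 lower (20.2% of all genes), the higher share being near the background. Without a size limit 9 of 39 were above both muscle libraries (43.7% of all genes) and 19 below both (37.2%). With total counts alone as the scaling 7 collagen genes were lower by size. Kidney was 1 library, so its spread is taken to be that of the muscle pair, and it shares its letter with no muscle library. The CPM values given for the 2 tissues were scaled within each tissue. The log2 changes, size counts and tests used kidney and wild type muscle scaled together, so the CPM values do not translate directly into them. Col4a3 and Col4a4, the glomerular chains, were at 299 and 188 CPM in wild type kidney and at 1.44 to 4.32 and 0.62 to 1.79 CPM in the 7 muscle libraries. Their log2 changes were 6.34 and 6.96, and Col4a4 had an edgeR adjusted p of 0.000161. Per length the Col4a3 to Col4a4 ratio was 1.44 in wild type and 1.47 in tumour kidney. Col27a1, a fibrillar chain of cartilage, was at 83.2 CPM in wild type kidney and 2.27 to 3.26 CPM in muscle. Col18a1, the multiplexin that carries endostatin, was at 124 CPM against 4.97 to 26.9 CPM. Col4a5 was at 37.0 CPM against 1.56 to 5.94 CPM, and Col26a1 at 6.81 CPM against 0.147 to 1.46 CPM. The type VI gene Col6a6 was also higher in kidney, at 36.2 CPM against 0.715 to 8.88 CPM.

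Lower in kidney were Col3a1 (29.6 CPM), Col6a1 (7.09 CPM), Col6a2 (5.10 CPM) and Col15a1 (10.1 CPM), each below all 7 muscle libraries. Col22a1 had 4 counts in wild type kidney and 477 and 285 counts in wild type PBS muscle, a log2 change of -7.10. Col4a1 and Col4a2 did not pass, at log2 changes of -0.18 and -0.26 (edgeR adjusted p 0.862 and 0.829). Type IV chains made 58.7% of collagen RPKM in wild type kidney, and fibrillar chains 18.1%.

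In tumour kidney, with 1 library a group and so no test, 26 of 37 collagen genes were lower than in wild type kidney (49.9% of all genes) and 11 higher (50.1%), with a median log2 change of -0.60 where that of all genes was 0.00. All 10 fibrillar genes measured were lower, with a median of -1.06. By size 8 of 25 collagen genes were lower (4.22% of all genes) and 1 of 22 higher (5.9% of all genes). Col19a1, a FACIT chain, had 3 counts against 140, a ratio of 0.0203 (95% interval 0.00414 to 0.0607, counting error only). Col6a6, a type VI chain, had 304 against 1533 counts, a ratio of 0.188 (0.166 to 0.213). Col5a1 (0.360), Col5a2 (0.399), Col14a1 (0.408), Col27a1 (0.439), Col5a3 (0.441) and Col16a1 (0.481) followed. Col12a1, a FACIT chain of loaded connective tissue, was the higher gene, with 529 against 239 counts, a log2 change of 1.06 and a ratio between 1.80 and 2.46. Col4a1 had a ratio of 0.968 (0.935 to 1.00). Of 17 TGF-beta and matrix genes 3 were higher by size, including Ltbp2 (4.89) and Postn (2.41), and 2 lower, the elastic fibre genes Eln (0.398) and Fbn1 (0.499). Of 15 basement membrane partners the laminin gene Lamb3 (4.48) was higher, and Lama1 (0.352) and Lamc3 (0.401) were lower. The cross-linking gene Loxl4 (13.0) and the protease inhibitor gene Timp4 (6.74) were also higher. Adipocyte markers summed to 1493 CPM in tumour kidney and 145 CPM in wild type kidney, with 6 of 7 higher by size, including Cfd (708 CPM against 39.2 CPM). Of 8 kidney tubule markers 2 were higher by size and 1 was lower. Umod (8032 CPM against 3304 CPM) and Aqp2 (1115 CPM against 430 CPM) were higher, and Slc22a6 (424 CPM against 1299 CPM) was lower. The part of the adipocyte and tubule markers' cells in the collagen values was not tested.

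**Figure D5:**
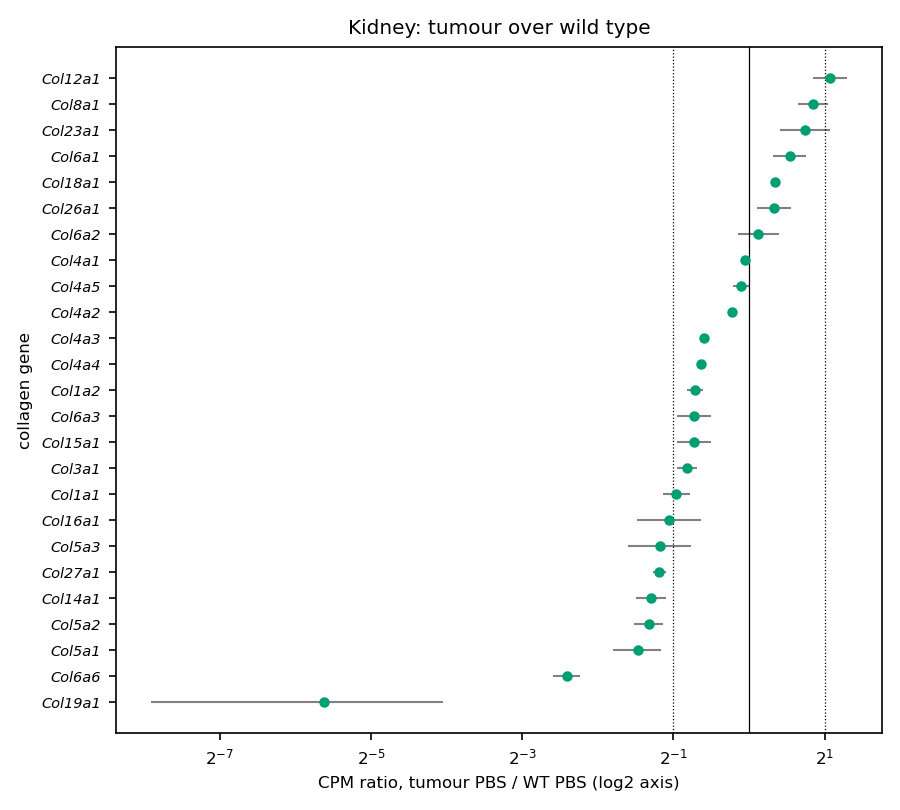
Ratio of TMM-scaled CPM, tumour over wild type kidney (log2 axis), for the 25 collagen genes with at least 100 counts in either library; bars are 95% intervals for counting error only and dotted lines mark 2-fold. Col19a1 is lowest at 0.0203 and Col12a1 highest, with an interval of 1.80 to 2.46.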

How the data were processed

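RNA was measured by sequencing in 9 mouse libraries, 1 per group except 2 of wild type PBS muscle. Each deposited table holds raw counts with no normalisation by the authors, a gene length, and RPKM that the authors derived from both. Alignment used HISAT2 2.1.0 and mm10, per the submitters' processing notes. The sources used here do not name the counter, the annotation or the strand setting. Counts were scaled with TMM, separately for muscle, for kidney and for the kidney and muscle comparison, and tested with edgeR 4.0.16 (quasi-likelihood, Benjamini-Hochberg over all genes) after a filter with a minimum count of 10. The muscle fit used all 7 libraries and 15482 genes. Its 1 residual degree of freedom is the wild type pair, with a coefficient of variation of 0.498 (named biological in edgeR). The libraries of that pair carry different letters, so the spread behind every muscle p-value includes any difference that goes with the letter. This holds also where the libraries compared share a letter. A log2 change is the mean difference of log2 CPM (prior count 2) against each reference library. DESeq2 1.42.0, limma-voom 3.58.1, other scalings, no filter, a minimum of 20 counts in place of 100 and each wild type library left out were alternatives. Intervals are exact 95% binomial intervals. In each comparison the genes named were an 11-gene panel and, past the size rule, up to 3 collagen genes per class and direction and up to 2 genes per other list and direction; others, such as Col9a1, Col4a6 and the genes with the smallest p, were named after their values were seen. The members and lists were chosen with earlier results of these data known.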

Additional observations from a re-analysis of the deposited data

How the results depend on the processing

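No paired analysis was possible because only wild type PBS muscle has replicate numbers and each other group is 1 library. The choice of wild type library decided most muscle counts. Leaving out 1 wild type library at a time, the collagen genes past the size rule ranged over these counts: tumour PBS, 0 to 2 higher and 4 to 15 lower; tumour MDC against wild type, 0 to 3 higher and 3 to 15 lower; wild type DKK1, 3 to 19 higher and 1 to 5 lower; knockout-labelled PBS, 1 to 2 higher and 3 to 15 lower. For the tumour and knockout-labelled libraries the larger counts of lower genes came without library 1. For wild type DKK1 both the 19 higher and the 5 lower genes came without library 2. With 1 wild type library the rule has 1 reference to pass, so more genes can, and the shares of all genes are not given. Library 2 itself had 14 of 21 collagen genes higher by size than library 1 (15.0% of all genes). The counts against 1 wild type library are thus not read as results about the collagen genes. Kidney against muscle had 7 to 10 higher and 14 to 15 lower.

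Directions also turned, given here as the log2 change without library 1 and then without library 2. For tumour PBS they were -0.37 and 0.67 for Col4a1, -0.082 and 0.74 for Col4a2, -1.14 and 0.043 for Col6a1, and -1.59 and 0.18 for Col6a3. For tumour MDC against wild type they were -1.02 and 0.0057 for the median, -0.95 and 0.093 for Col4a1, -0.40 and 0.42 for Col4a2, and -0.59 and 0.011 for Col15a1. For knockout-labelled PBS they were -0.91 and 0.19 for the median, -1.41 and 0.49 for Col1a1, -1.04 and 0.084 for Col1a2, -1.49 and 0.19 for Col3a1, -1.45 and 0.076 for Col5a1, -1.39 and 0.50 for Col5a2, -0.91 and 0.27 for Col6a1, -1.23 and 0.099 for Col6a2, and -1.28 and 0.49 for Col6a3. For kidney against muscle they were -0.70 and 0.34 for Col4a1 and -0.67 and 0.15 for Col4a2, and with total counts alone 0.48 and 0.40. Col4a2 in tumour MDC against wild type, near 0 in the reported fit, was -0.0034 with DESeq2 size factors, -0.095 with total counts alone, -0.096 without a filter and -0.061 by DESeq2.

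With total counts alone, edgeR called 5 genes for tumour PBS and 1 for knockout-labelled PBS; by size 1 collagen gene was lower with MDC against tumour PBS, 8 were higher and 0 lower with wild type DKK1, 0 were higher in knockout-labelled against wild type DKK1, and 7 were lower in kidney against muscle. With a minimum of 20 counts, 1 was lower with MDC against tumour PBS, 2 lower with MDC against wild type, 4 higher with wild type DKK1, 1 higher in knockout-labelled PBS, 4 higher with DKK1 under the knockout label and 2 higher in tumour kidney. DESeq2 called 12 genes for tumour PBS, 11 for MDC against wild type, 4 for wild type DKK1, 19 for knockout-labelled PBS, 6 for knockout-labelled against wild type DKK1 and 3 for the interaction. Limma-voom called 6 collagen genes between kidney and muscle. Unless a sentence here says otherwise, the cause was not tested. Depth limits the genes under 100 counts, such as Col9a1 and Col4a6.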
